A study of Ciona robusta with 6 samples.

Results

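The 7 genes described here encode secreted signals and signal antagonists of the embryonic midline and neighbouring tissues in the ascidian Ciona robusta, a tunicate whose larva carries a notochord. They were taken by identifier from a table of 15284 KH2012 gene models, and all 7 were present: Chordin (KH.C6.145), Noggin (KH.C12.562), Admp (KH.C2.421), Bmp2/4 (KH.C4.125), Nodal (KH.L106.16), Fgf8/17/18 (KH.C5.5) and Wnt5 (KH.L152.45). The table holds identifiers only, so these names come from general knowledge of the gene model set and could not be checked against it. All 7 were among the 11953 gene models tested, those with a normalised read count of at least 10 in at least 3 libraries.

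Both groups were whole embryos grown from unfertilized eggs that had received Cas9 protein, crRNA and tracrRNA, then been fertilized and raised at 21 degrees Celsius to Hotta stage 14, a neurula stage. CrBra embryos received a guide RNA against Brachyury, a T-box factor that specifies notochord fate, and CrGFP embryos a guide against GFP, which is not a gene of this species. Each guide had 3 libraries, called biological replicates in the series' design text. Each sample pooled 50 to 85 embryos, so any differences in editing between embryos or cells could not be seen. The share of alleles cut was not measured in these files.

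BMP ligands and their antagonists act against each other outside the cell: Chordin and Noggin bind BMP proteins and keep them from their receptors, and Admp (anti-dorsalizing morphogenetic protein) is a BMP family member that in vertebrates is made on the dorsal side together with Chordin. Nodal is a TGF-beta family ligand used in early axis and neural plate patterning, and Fgf8/17/18 belongs to the FGF family, whose receptors signal through the MAP kinase cascade. Wnt5 belongs to the Wnt ligands, and its vertebrate relatives are best known for planar cell polarity and cell movement.

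The 6 libraries held 13191537 to 16094085 reads, and a normalised read count below is the number of reads after the authors' scaling of each library by a single factor. Libraries of different guides that carried the same replicate number deviated together over the tested models, with correlations of 0.82 to 0.88, so each result is also given with the replicate number as a block. Among the tested models 73.4% differed between replicate numbers (limma F test with the guide as covariate, Benjamini-Hochberg adjusted p under 0.05). The labels do not say what the numbers share. KH.S1404.1, taken as Brachyury on the same footing as the other names, stood at 31.4%, 35.3% and 29.6% of its CrGFP level in CrBra replicates 1, 2 and 3. Markers of tissues were not named here, since neither the table nor the reference pairs them with identifiers, so the makeup of the embryos was not checked. In whole embryos fewer cells of a type and less RNA per cell cannot be told apart.

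The main comparison asked whether each signal was expressed at another level when the Brachyury guide had been injected. No difference in any of the 7 genes passed the test, which does not show that their levels were alike. In limma on log2(value + 1), 0 of 7 passed a Benjamini-Hochberg adjusted p of 0.05 over all tested models, either without the replicate block, where 0% of all tested models were called, or with it, where 0.402% were called. The adjusted p of each of the 7 was 0.999999 without the block and 0.999 with it. The lowest unadjusted p among the 7 was 0.332 without the block and 0.0797 with it, so 0 of 7 also lay under an unadjusted 0.05. edgeR and DESeq2 on recovered whole reads called 0 of 7 as well, with 0 of 7 under an unadjusted 0.05, with and without the block. With the block, these tools called 0.477% and 0.495% of the models they tested, and without it 0% and 0.176%. The CrGFP and CrBra values overlapped for all 7 genes, as for all but 1.78% of the tested models.

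**Figure D1:**
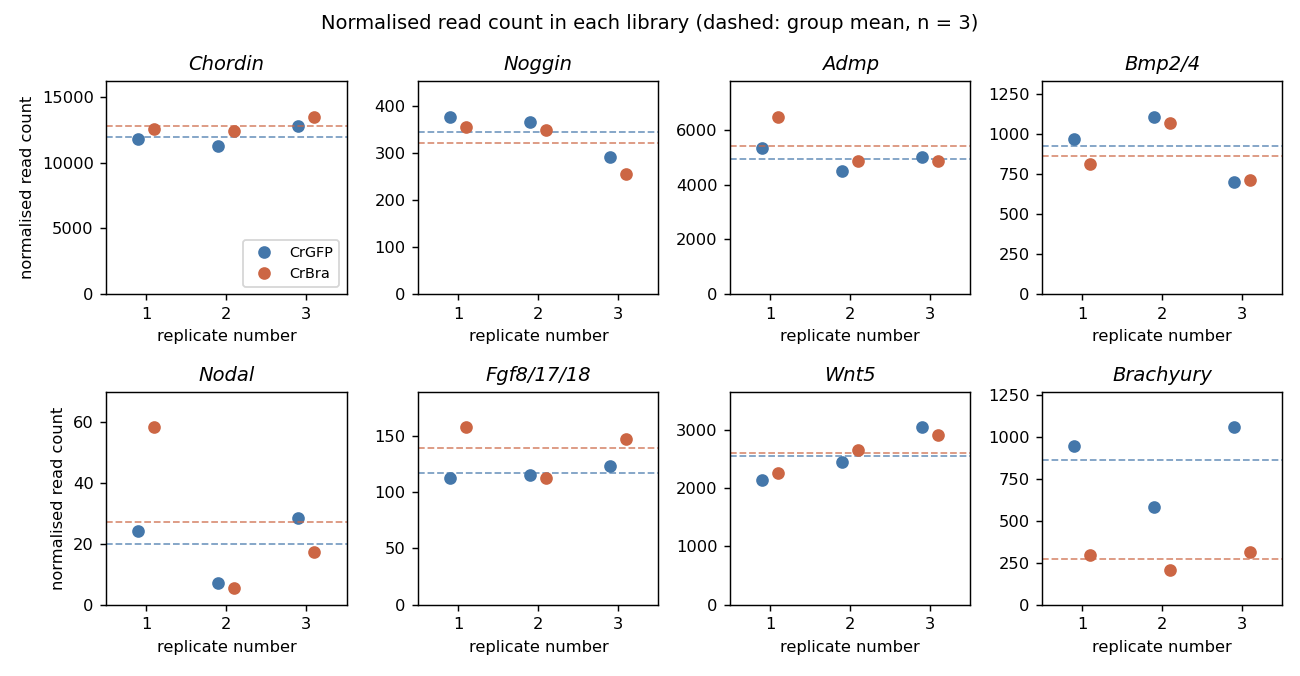
Normalised read count (vertical axes, starting at 0 and scaled per gene) against replicate number for the 7 signalling genes and Brachyury, with 1 point per library and dashed lines at the means of 3 libraries per guide. The points of the 2 guides overlap for each signalling gene, while Brachyury lies between 205 and 313 in CrBra and between 582 and 1058 in CrGFP.

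Among the antagonists, Chordin was slightly higher in CrBra in each pair of libraries, and Noggin slightly lower in each pair, and neither difference passed the test. The normalised read count of Chordin was 11790.4, 11315 and 12806 in CrGFP, in the order of the replicate numbers, and 12566, 12429.5 and 13533 in CrBra. The groups overlapped, since CrGFP replicate 3 lay above CrBra replicates 1 and 2. With 11131 to 14840 reads per library, Chordin was the member with the smallest counting error. Its CrBra level was 107%, 110% and 105.7% of the same-numbered control, and the 95% counting intervals of these ratios reached down to 104%, 107% and 103%. Counting intervals cover the sampling of reads and no other source of error. Log2 ratios at least as far from 0 were found in pairs 1, 2 and 3 for 60.1%, 37.4% and 57.3% of the tested models. Its log2 fold change in limma was 0.10 (standard error 0.11 without the block and 0.051 with it). The 95% interval of the blocked fit ran from 99.0% to 116% of the control level. A higher value in all 3 pairs was found for 12.4% of the tested models.

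Noggin had normalised read counts of 377, 365 and 290.0 in CrGFP and 356, 349 and 255 in CrBra. Replicate 3 was the lowest library of each guide, and the groups overlapped. Noggin in CrBra stood at 94.4%, 95.7% and 87.8% of its control in pairs 1, 2 and 3, and the counting interval of each ratio included 100%. On the log2 scale its difference was -0.11 (limma, standard error 0.21 without the block and 0.079 with it). A lower value in all 3 pairs was found for 11.1% of the tested models. The blocked interval ran from 81.7% to 105% of the control level.

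The BMP ligands gave differences that changed direction between pairs. Admp had normalised read counts of 5325, 4498 and 5017 in CrGFP and 6490.4, 4860.2 and 4856 in CrBra. CrBra replicate 1 was the highest of the 6 libraries, and the other CrBra libraries lay inside the range of the controls. Within the pairs, the CrBra level was 122%, 108% and 96.8% of the control, with a counting interval of 118% to 126% in pair 1, of 104% to 113% in pair 2 and of 93.0% to 101% in pair 3. A log2 ratio at least as far from 0 as that of Admp in pair 1 was found in the same pair for 22.4% of the tested models. For pair 2 this share was 45.1%. Admp differed by 0.12 on the log2 scale (limma, standard error 0.16 without the block and 0.066 with it). Without CrBra replicate 1 the unblocked value was -0.02, in a fit no longer balanced over the replicate numbers. The blocked fits without 1 pair gave 0.03 to 0.20.

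Bmp2/4 had normalised read counts of 969.9, 1109 and 700.2 in CrGFP and 810.3, 1067 and 710.1 in CrBra. Replicate 2 was the highest and replicate 3 the lowest library of each guide. The CrBra level of Bmp2/4 was 83.6% of the control in pair 1, where the counting interval ran from 76.4% to 91.4%, and 96.2% and 101% in pairs 2 and 3, where the interval included 100%. In pair 1, 25.1% of the tested models had a log2 ratio at least as far from 0. The log2 fold change of Bmp2/4 was -0.10 (limma, standard error 0.23 without the block and 0.068 with it), and the blocked interval ran from 83.9% to 104% of the control level. It turned positive in the unblocked fit without CrGFP replicate 2 (0.04) or without CrBra replicate 3 (0.03). Such a fit is no longer balanced over the replicate numbers, and the blocked fits without 1 pair gave -0.16 to -0.02.

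**Figure D2:**
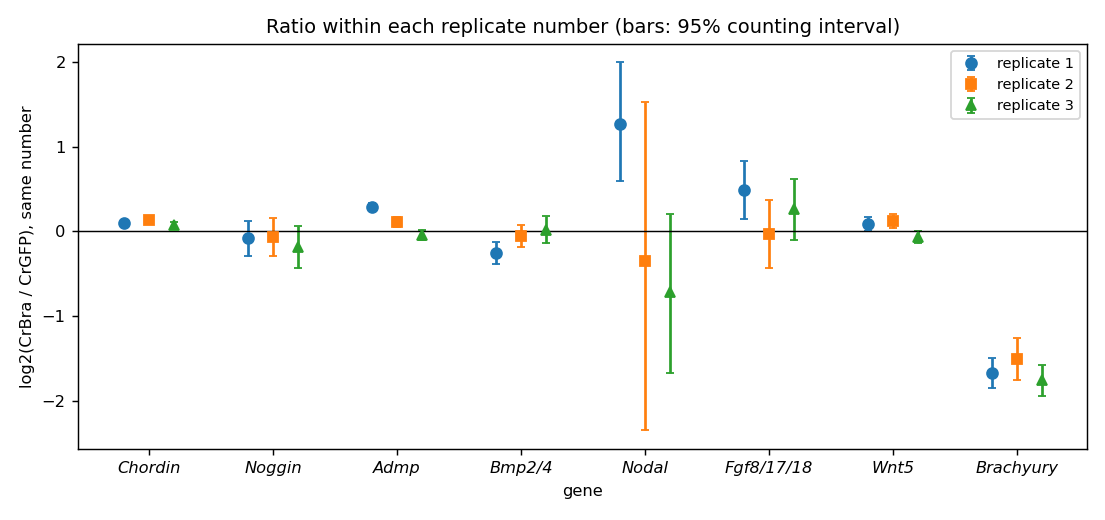
Log2 ratio of CrBra over CrGFP within replicate numbers 1, 2 and 3 for each gene, with bars for the 95% exact binomial interval, which covers counting error only. Brachyury lies below 0 in all 3 pairs, the 3 Chordin ratios lie just above 0, and the Nodal ratios spread from 241% of the control in pair 1 to 61.0% in pair 3.

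Nodal was the least abundant member by reads and the one whose pairs differed most from each other. Its reads numbered 25, 7 and 28 in CrGFP and 69, 5 and 17 in CrBra. As normalised read counts these were 24.2, 7.12 and 28.5 in CrGFP and 58.4, 5.58 and 17.4 in CrBra. CrBra replicate 1 stood above the other 5 libraries, and both libraries of replicate 2 lay below the other 4. The CrBra level was 241% of the control in pair 1, with a counting interval of 151% to 398%, and 78.4% and 61.0% in pairs 2 and 3, with intervals of 19.6% to 287% and 31.3% to 115%. In pair 1, 1.16% of the tested models had a log2 ratio at least as far from 0. The standard deviation of the 3 log2 ratios was 1.02, against a median of 0.14 over all tested models, and 0.962% of the models had at least that spread. Both shares are over all tested models, without matching for read number, and few reads widen such ratios.

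On average over the pairs Nodal differed by 0.08 on the log2(value + 1) scale, and this value moved with the pseudocount, from 0.0774 with 0.5 to 0.114 with 5. Its standard error was 0.88 without the block and 0.39 with it (limma). The 95% interval of the blocked fit ran from 57.4% to 196% of the control level, and that of the unblocked fit from 24.9% to 452%. Blocked edgeR, which works on the reads, gave a log2 fold change of 0.39 (adjusted p = 0.999). Leaving out CrBra replicate 1 in the unblocked limma fit turned the value to -0.73, leaving out CrGFP replicate 2 to -0.50, and leaving out pair 1 in the blocked fit to -0.49. These intervals hold both the counting error of 5 to 69 reads per library and the disagreement between pairs, since the counting intervals of pairs 1 and 3 did not overlap.

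Fgf8/17/18 had the largest average difference of the 7 in the limma fit, and it did not pass the test. The normalised read count was 112, 115 and 123.1 in CrGFP and 157, 113 and 147 in CrBra. CrBra replicates 1 and 3 lay above all 3 controls, and CrBra replicate 2 lay among them. Its CrBra level was 140%, 98.2% and 120% of the control in pairs 1, 2 and 3, and only in pair 1 did the counting interval, 111% to 178%, leave out 100%. The guides differed by 0.24 on the log2 scale (limma, standard error 0.23 without the block and 0.14 with it). An average difference at least as large in size was found for 11.98% of the tested models, and the blocked interval ran from 94.9% to 147% of the control level. Without pair 1 the blocked value was 0.12, and without pair 2 it was 0.37.

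Wnt5 had normalised read counts of 2142, 2452 and 3045 in CrGFP and 2267, 2659 and 2905 in CrBra. Under both guides replicate 3 was the highest and replicate 1 the lowest, and each CrBra library lay close to its same-numbered control, at 105.8%, 108% and 95.4% of it. The average difference of Wnt5 was 0.04 on the log2 scale, the smallest of the 7 in size (limma, standard error 0.17 without the block and 0.054 with it). The blocked interval ran from 94.6% to 112% of the control level. The unblocked value turned to -0.07 without CrGFP replicate 1 and to -0.04 without CrBra replicate 3. Those fits are no longer balanced over the replicate numbers, and the blocked fits without 1 pair gave 0.01 to 0.10.

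**Figure D3:**
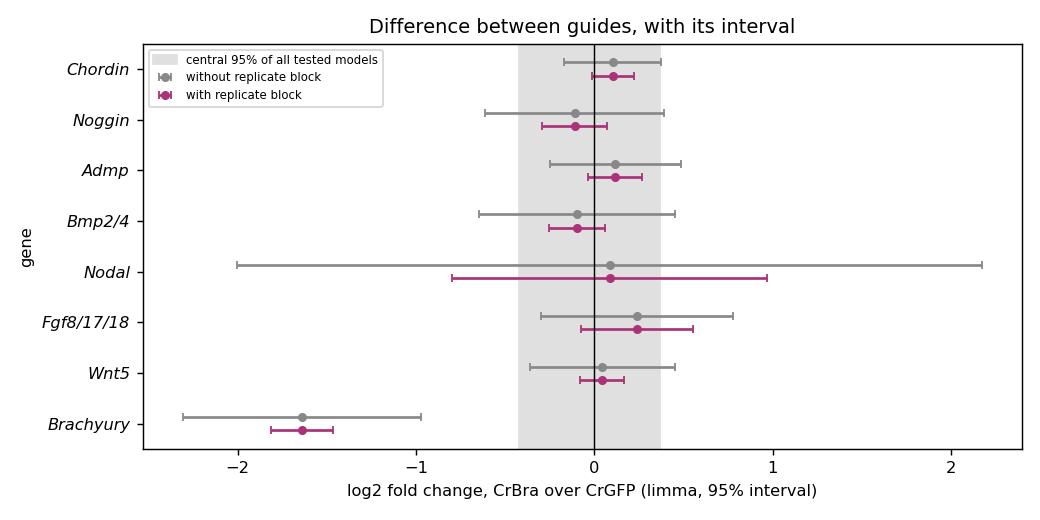
Log2 fold change of CrBra over CrGFP (points) with its 95% limma interval without and with the replicate block for each gene, beside the range of the central 95% of the log2 fold changes of all tested models (-0.42 to 0.37). The intervals of the 7 signalling genes include 0 in both fits, and that of Brachyury runs from -1.81 to -1.47 with the block.

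The intervals show how large a difference these libraries leave room for. In the blocked fit, the 95% interval stayed within a 1.5-fold difference in either direction for 6 of the 7 genes, all but Nodal, and within 2-fold for all 7. In the unblocked fit it stayed within 2-fold for 6 of the 7, again all but Nodal. Without the block the intervals of Noggin and Bmp2/4 reached down to 65.4% and 63.9% of the control level. That of Fgf8/17/18 reached up to 171%, so these genes also passed 1.5-fold in the unblocked fit. How many of all tested models stay within these bounds was not counted. The median log2 fold change of the 7 genes was 0.08, beside 0.006 over all tested models, and the median size regardless of direction was 0.10 beside 0.06. On average 5 of the 7 were higher and 2 lower in CrBra, and in 5 of the 7 the pairs did not share a direction. Among all tested models only 12.4% were higher and 11.1% lower in all 3 pairs, so mixed pairs were the usual case. The share of all tested models higher on average was not counted. These 7 genes do not stand in for the other genes of their pathways, which were not named or analysed here.

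The levels of these signals were also compared between replicate numbers, with the guide as a covariate. Here 5 of the 7 genes differed (limma F test, Benjamini-Hochberg adjusted p under 0.05 over all tested models), beside 73.4% of all tested models. Bmp2/4 had an adjusted p of 0.000761 in that test and ranged 1.54-fold between numbers, highest in replicate 2 and lowest in replicate 3. Wnt5 (adjusted p = 0.0015) ranged 1.35-fold, in the order replicate 3, 2 and 1 from high to low. Noggin (adjusted p = 0.00700) also ranged 1.35-fold, and its lowest number was replicate 3, where Wnt5 was highest. Admp (adjusted p = 0.0135) ranged 1.26-fold and was highest in replicate 1.

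Nodal (limma F test, adjusted p = 0.00508) ranged 5.30-fold on the log2(value + 1) scale, from a low in replicate 2 to a high in replicate 1, and 2.79% of the tested models had at least that range. The low rests on 7 reads in CrGFP and 5 in CrBra, and those models were not matched to Nodal for read number. Chordin and Fgf8/17/18 did not pass the same test (adjusted p = 0.120 and 0.356) and ranged 1.11-fold and 1.18-fold. Chordin was among the steadiest models in this respect, since 93.8% of the tested models had at least its range. The median range of the 7 genes was 0.43 on the log2 scale, below the 0.56 over all tested models. For all 7 the range between numbers was larger than the average difference between guides, narrowly so for Fgf8/17/18 (0.241 and 0.238 on the log2 scale). A range over 3 numbers and a difference between 2 means are not the same measure. How many of all tested models had the larger range was not counted. Their median range of 0.56 also exceeded their median size of difference, 0.06, so this is no trait of the 7 genes.

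**Figure D4:**
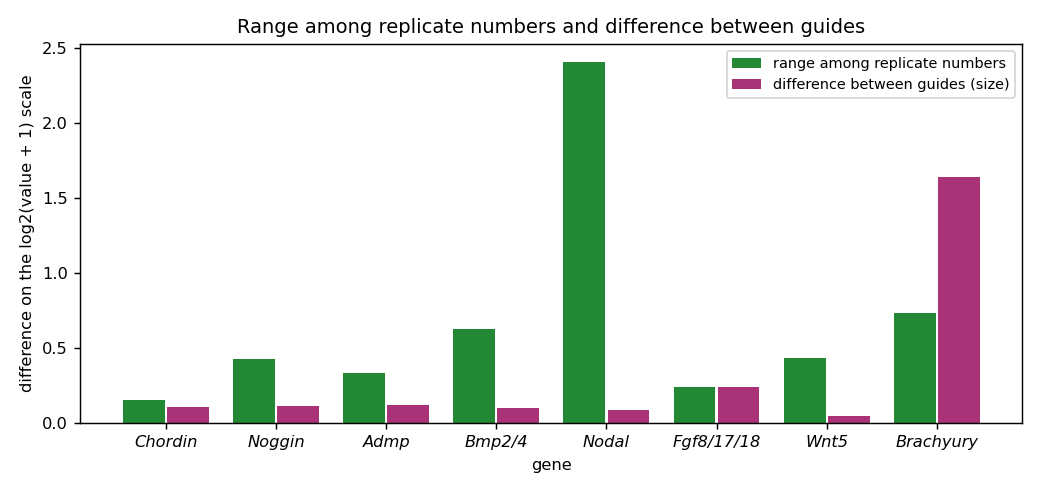
Range of the mean level among the 3 replicate numbers and size of the average difference between guides, both as differences on the log2(value + 1) scale, for each gene. The range reaches 2.41 for Nodal and 0.62 for Bmp2/4, while for Brachyury the difference between guides (-1.64 with its sign) exceeds in size the range of 0.73.

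The balance of antagonist and ligand transcripts was described by log2 ratios within each library, without a test. Gene lengths were not known, so a ratio is read only against the same ratio in other libraries. The ratio of Chordin to Bmp2/4 was 3.60, 3.35 and 4.19 in CrGFP and 3.95, 3.54 and 4.25 in CrBra. It was higher in CrBra in each pair, by 0.35, 0.19 and 0.06, a mean of 0.20 ± 0.15 (SD, n = 3 pairs). How often ratios of other gene pairs rise in all 3 pairs was not counted. Among single tested models, 12.4% were higher and 11.1% lower in CrBra in all 3 pairs. No counting interval was worked out for the ratio. In pair 3 the counting interval of Bmp2/4 alone ran from 91.1% to 113% of the control, wider than the difference of 0.06. The ratio of Chordin to Bmp2/4 moved most in pair 1, where Bmp2/4 stood at 83.6% of the control. That ratio was highest in replicate 3 under both guides.

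The ratio of Chordin to Admp was 1.15, 1.33 and 1.35 in CrGFP and 0.95, 1.35 and 1.48 in CrBra, lowest in replicate 1 under both guides. It differed between guides by -0.19, 0.02 and 0.13 in pairs 1, 2 and 3, with no shared direction. The ratio of Noggin to Bmp2/4 was -1.36, -1.60 and -1.27 in CrGFP and -1.19, -1.61 and -1.48 in CrBra. Its differences within pairs were 0.18, -0.01 and -0.21, so the pairs again had no shared direction.

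**Figure D5:**
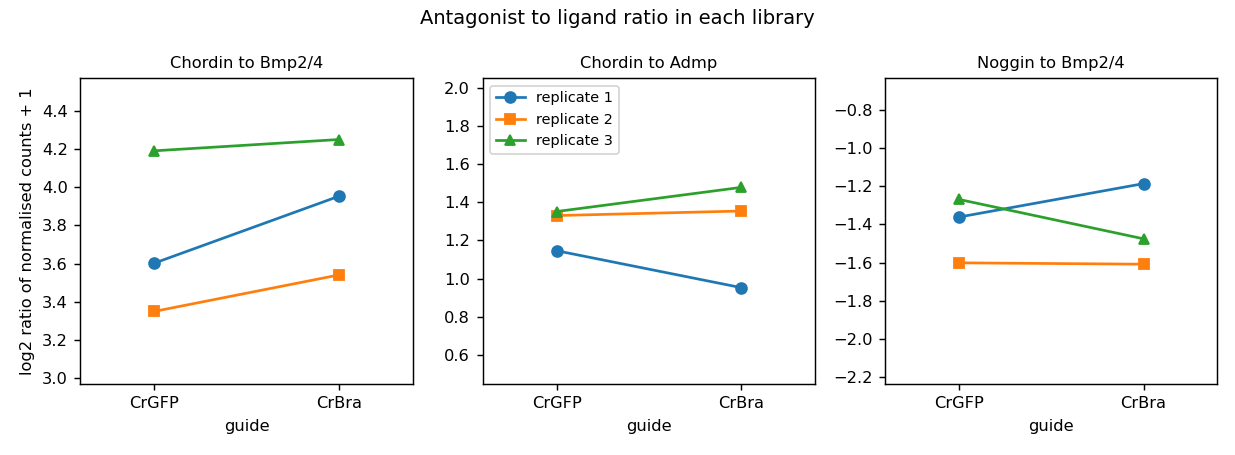
Log2 ratio of the normalised read counts of an antagonist and a ligand in each library, with a line from the CrGFP to the CrBra library for every replicate number. All 3 lines rise for Chordin to Bmp2/4, by 0.35, 0.19 and 0.06, and the lines of the other ratios differ in direction. No test was run, and the share of other gene pairs with 3 rising lines was not counted.

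For the 4 members with the highest mean counts, the gene model with the most similar levels over the 6 libraries was looked up by Pearson's r on log2(value + 1). Since the libraries of a replicate number deviate together, such likeness mostly rests on 3 pairs of libraries and is given as a description. Admp was nearest to KH.C1.99 (r = 0.997), which had 2815, 2215 and 2626 normalised reads in CrGFP and 3840.0, 2421 and 2508 in CrBra, with the highest value in CrBra replicate 1 as for Admp. Bmp2/4 was nearest to KH.S423.1 (r = 0.997), Wnt5 to KH.S1870.1 (r = 0.996) and Chordin to KH.C1.445 (r = 0.996), a model with a mean normalised read count of only 12.7. A correlation above 0.95 was reached by 221 models for Bmp2/4, 329 for Wnt5, 48 for Admp and 11 for Chordin. None of the 4 models passed the blocked limma test between guides (adjusted p = 0.999), which 0.402% of all tested models passed. They were picked for likeness to genes that did not pass it, so this is no separate result.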

How the data were processed

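RNA was measured in 6 libraries, 3 per guide, made with a stranded mRNA kit per the labels' protocols. The submitters' processing notes name TopHat2 2.9.8b and DESeq 1.8.1, given as written there; how reads were counted, with which strand setting and on which build is not given in the sources used here, so reads of overlapping or antisense genes may not be separated. Per the file headers, the authors deposited a signal, the count normalised to library size, and regularized log2 values. In every library 100% of the values gave whole reads once divided by the step between low values (tolerance 0.01 reads), and these reads summed to 13191537 to 16094085 per library. A count of 0 would allow up to 3 reads, but no member was at 0. All 12 value columns were matched by name and 0 were unused; 0 of 15284 identifiers matched the RefSeq gene table, so sequence, length, position and further pathway genes or tissue markers were not analysed here.

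The plan held edgeR for raw counts and limma otherwise, so limma 3.58.1 with a mean-variance trend was fitted in R 4.3.3 to log2(value + 1) over 11953 models, without a block, with Benjamini-Hochberg adjustment over all of them and two-sided tests. The replicate block is printed beside it because all 3 same-number correlations of deviations (0.86, 0.88 and 0.82) exceeded 0.1. Correlations between different numbers were -0.57 to -0.30. Deviations were taken from the mean of each guide, which pulls these below 0 when same-number correlations are positive. The negative values are therefore no separate evidence of pairing. An exact permutation test of 3 against 3 cannot give a two-sided p below 0.1. Counting intervals are exact (Clopper-Pearson, 95%) on the reads of a pair. edgeR 4.0.16 and DESeq2 1.42.0 were alternatives on recovered reads. The fits were tested on simulated data. The naming rule took the 7 members, Brachyury as a check of the labels, and the nearest model of the 4 members with the highest mean count. Members, lists and rules were chosen with earlier results of these data known.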

Additional observations from a re-analysis of the deposited data

How the results depend on the processing

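No alternative brought any of the 7 genes past the 5% threshold. The 24 alternatives were pseudocounts of 0.5 and 5, no low-value filter (models without a read left out), TMM scaling, regularized log2 values, edgeR and DESeq2, each with and without the replicate block, the replicate block alone, and fits without each library or pair. The lowest adjusted p was 0.350, for Admp in blocked limma without pair 3, where 1 residual degree of freedom per model remains. Of the 168 values, 159 kept their direction. The 9 that reversed came from fits that left out a library or a pair, and with all libraries in, 0 reversed. In limma with all libraries in, the replicate block and the low-value filter leave the log2 fold change unchanged. Those values could not reverse, so their shared direction is no separate result. Over the unblocked fits without 1 library, the log2 fold change ran from 0.06 to 0.15 for Chordin, -0.229 to 0.0448 for Noggin, -0.0226 to 0.187 for Admp, -0.287 to 0.0446 for Bmp2/4, -0.73 to 0.86 for Nodal, 0.14 to 0.38 for Fgf8/17/18 and -0.0735 to 0.18 for Wnt5. Over the blocked fits without 1 pair it ran from 0.09 to 0.11, -0.13 to -0.07, 0.03 to 0.20, -0.16 to -0.02, -0.49 to 0.47, 0.12 to 0.37 and 0.01 to 0.10 in the same order. The cause was not tested. The replicate block changed no call of a member. It brought the log2 fold change of Brachyury (-1.64) from an adjusted p of 0.608 to 8.89e-05 in limma; the alternatives for Brachyury were added after the data were seen. The count of 5 genes that differed between replicate numbers was also 5 with a pseudocount of 5 and in edgeR. Counting intervals were widest for Nodal, with 5 to 69 reads per library.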
